A study of Homo sapiens with 4 samples.

Results

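The 10 genes described here encode receptor tyrosine kinases outside the ERBB family: MET, AXL, IGF1R, INSR, FGFR1, FGFR2, FGFR3, EPHA2, MST1R and NTRK2. They were taken by name, and their 15 probes are those non-control probes of the array whose transcript accession belongs to one of these genes, out of 34127 probes and 19480 named genes in all. The genes were measured in HuCCT1, a human intrahepatic cholangiocarcinoma cell line, after 4 transfections with 1 array each. The cells received 30 nM of Pre-miR-376c (a synthetic mimic of the mature microRNA), Pre-miR negative control, siGRB2-2 (a small interfering RNA against GRB2, called siGRB2 in the sample labels) or siRNA negative control. From 24 h after transfection all 4 cultures were kept for a further 24 h in low-serum medium (0.1%) that held EGF at 5 ng/ml, so no array shows these receptors without EGF. RNA (200 ng) was labelled with 1 dye, and all 4 arrays lay on 1 slide read in 1 scan. No condition was replicated, so neither p-values nor SDs between cultures can be given, and each difference below rests on a single pair of arrays.

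Receptor tyrosine kinases cross the membrane once, and for most of them ligand binding brings receptor chains together so that they phosphorylate tyrosines in each other's tails. The adaptor GRB2, the protein product of the gene targeted by siGRB2-2, binds such phosphotyrosines through its SH2 domain, directly or through docking proteins such as SHC1, FRS2 and IRS1, and brings the exchange factor SOS to RAS. Several of these receptors are known from bile duct cancer, in particular FGFR2, which is rearranged in a subset of intrahepatic tumours, and MET, the receptor of hepatocyte growth factor.

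The transfected microRNA is shown first because one arm of the comparison consists of it. In RefSeq, hsa-miR-376c-3p lies on the plus strand at chr14:101039732-101039752 (GRCh38.p14) in a cluster with its relatives hsa-miR-376a-3p (chr14:101040118-101040138) and hsa-miR-376b-3p (chr14:101040497-101040518). Capitals mark the seed, bases 2 to 8 from the 5′ end, with which a microRNA pairs with its targets, and the sequences run 5′ to 3′.
hsa-miR-376c-3p: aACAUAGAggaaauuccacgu
hsa-miR-376a-3p: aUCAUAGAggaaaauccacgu
hsa-miR-376b-3p: aUCAUAGAggaaaauccauguu
hsa-miR-376a-3p and hsa-miR-376b-3p share the seed UCAUAGA, while hsa-miR-376c-3p has the seed ACAUAGA. Sites for these seeds in the receptor transcripts were not searched here.

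Every level below is the log2 of a probe's background-corrected signal minus the 75th percentile of its array, so 0 is the 75th percentile and each unit is a doubling. A level is compared only with the same probe on another array, since probes differ in how strongly they bind. A probe was taken as detected where the scanner software called it well above background on more than 0.5 of its spots. Each difference is given with the scanner software's own error for it (log2), which covers reading the spot and not the variation between cultures. The siRNA negative control array stood apart from the other 3: over the 21239 probes detected on all 4 arrays, the SD of log2 differences was 0.54 to 0.58 in the 3 pairs that include it and 0.31 to 0.36 in the 3 pairs that do not. For each receptor the difference of siGRB2-2 from it is therefore followed by the difference from Pre-miR negative control. GRB2 (1 probe, A_24_P407717) had levels of 0.62 with Pre-miR negative control, 0.07 with Pre-miR-376c, -0.10 with siRNA negative control and -0.65 with siGRB2-2. It was thus lowest on the array labelled siGRB2, but the 2 negative controls lay further apart in GRB2 than siGRB2-2 and siRNA negative control did. All 6 markers of biliary epithelium examined (KRT7, KRT19, KRT8, KRT18, EPCAM and SOX9) were detected on all 4 arrays. Of 8 markers of other cell types, 5 were also detected on all 4 (PTPRC and CD68 of leukocytes, VWF of endothelium, COL1A1 of fibroblasts, and DES of muscle and stellate cells). For PTPRC this held for 2 of its 4 probes, and the other 2 were detected on no array. PECAM1 of endothelium was detected on 2 arrays, and ALB of hepatocytes and COL3A1 of fibroblasts on none. Among these markers COL1A1 alone was 2-fold apart in an own-control comparison, by -1.01 with Pre-miR-376c. Its level was -2.40 with Pre-miR negative control, -3.41 with Pre-miR-376c, -2.79 with siRNA negative control and -2.20 with siGRB2-2.

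Each of the 10 receptors had a probe detected on all 4 arrays. Of the 15 probes, 11 were detected on all 4 arrays, 1 (the second FGFR2 probe) on 2 arrays, and 3 on none (the second FGFR3 probe and 2 of the 3 NTRK2 probes). Over the whole array, 21239 of 34127 probes were detected on all 4. MET was read by 10 spots per array, and the other 14 probes by 1 spot each. No receptor spot carried an outlier flag, and none was saturated. Of the 44 remaining receptor tyrosine kinases outside the ERBB family on the array, 22 had a probe detected on all 4 arrays, 3 on some (FLT4, TEK and RYK, whose spot was flagged on 2 arrays) and 19 on none. Receptors known from mesenchymal, endothelial and blood cells were found in each class: PDGFRA, PDGFRB, KIT, KDR and FLT3 were detected on none, TEK and FLT4 on 2 arrays each, and CSF1R and MERTK on all 4. The 10 receptors were chosen with earlier results of these data known, so their detection cannot be compared with that of the remaining receptors.

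**Figure D1:**
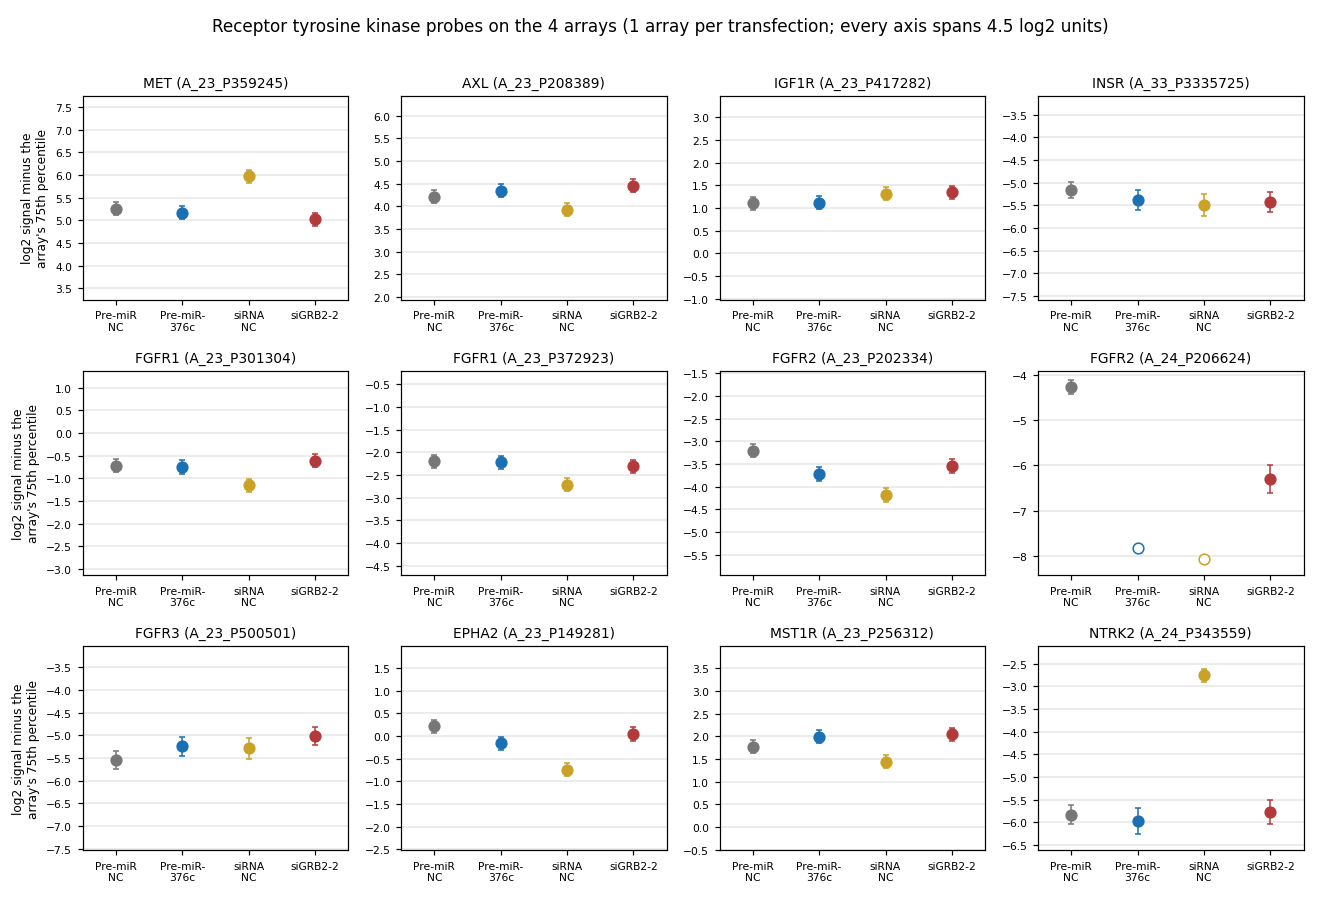
Level of each receptor probe detected on at least 1 array (y axis, log2 signal minus the array's 75th percentile) on the 4 arrays (x axis); bars are the scanner software's error and open symbols are signals not well above background. All panels span the same range, and the siRNA negative control (NC) array is the lowest or highest of the 4 in most of them, most clearly for NTRK2 at -2.76.

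The receptors of the hepatocyte growth factor family are MET and MST1R, the receptor of macrophage-stimulating protein. The MET level was 5.26 with Pre-miR negative control, 5.16 with Pre-miR-376c, 5.97 with siRNA negative control and 5.03 with siGRB2-2. The 10 MET spots lay between 5.90 and 6.01 on the siRNA negative control array, and between 4.96 and 5.30 on the other 3 arrays, so the spots of that control overlapped with those of no other array. The SD between spots was 0.029 to 0.044. With siGRB2-2, MET was lower than on its own control by a log2 difference of -0.94 (scanner error 0.20), or 51.9% of that control, just short of the 2-fold limit of the study's methods. It passed that limit with the arrays scaled on their medians (-1.25) and in the deposited log2 values (-1.02). Against Pre-miR negative control the difference was -0.23, or 85.3%. Pre-miR-376c differed from Pre-miR negative control by -0.09, less than the scanner error of 0.20, and from siRNA negative control by -0.81. The 2 negative controls differed by 0.72 in MET, so more of the MET difference with siGRB2-2 lay between the controls than between siGRB2-2 and Pre-miR negative control.

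**Figure D2:**
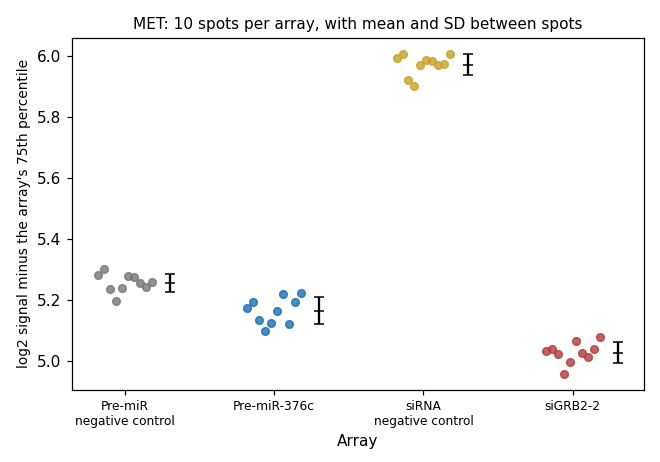
Level of MET in each of its 10 spots per array (y axis, log2 signal minus the array's 75th percentile; points), with the mean and SD between spots (bars), on the 4 arrays (x axis). The spots with siRNA negative control lie between 5.90 and 6.01, above those of the other 3 arrays, which lie between 4.96 and 5.30.

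The MST1R level was 1.77 with Pre-miR negative control, 1.99 with Pre-miR-376c, 1.44 with siRNA negative control and 2.04 with siGRB2-2. The siRNA negative control array was the lowest, the opposite of MET. Against its own control, Pre-miR-376c differed by 0.22 and siGRB2-2 by 0.60, each past the scanner error of 0.20, and siGRB2-2 differed by 0.27 from Pre-miR negative control.

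AXL belongs to the TAM family of receptors, which bind GAS6, and its level was 4.22 with Pre-miR negative control, 4.35 with Pre-miR-376c, 3.93 with siRNA negative control and 4.46 with siGRB2-2. The siRNA negative control array was again the lowest. The difference was 0.13 with Pre-miR-376c, within the scanner error of 0.20, and 0.53 with siGRB2-2 against siRNA negative control, which became 0.24 against Pre-miR negative control.

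EPHA2, a receptor for membrane-bound ephrin-A ligands on neighbouring cells, had levels of 0.21 with Pre-miR negative control, -0.16 with Pre-miR-376c, -0.75 with siRNA negative control and 0.04 with siGRB2-2. Pre-miR negative control was the highest of the 4 arrays and siRNA negative control the lowest. Pre-miR-376c was lower than its own control by a log2 difference of -0.38, and siGRB2-2 was higher than its own control by 0.79, both past the scanner error of 0.20. Exchanging the controls exchanged both signs, to 0.58 for Pre-miR-376c and -0.17 for siGRB2-2.

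IGF1R and INSR, the receptors of insulin-like growth factor 1 and of insulin, spanned 0.25 and 0.33 log2 units from the lowest to the highest of the 4 arrays. The IGF1R level was 1.10 with Pre-miR negative control, 1.11 with Pre-miR-376c, 1.32 with siRNA negative control and 1.35 with siGRB2-2. IGF1R differed by 0.01 with Pre-miR-376c and by 0.04 with siGRB2-2 against their own controls, both within the scanner error of 0.20, and by 0.25 with siGRB2-2 against Pre-miR negative control. INSR, at -5.17, -5.38, -5.49 and -5.42 in the same order of arrays, was close to the background on all 4, with processed signals of 74.9, 49.6, 38.1 and 46.6. INSR differed from the own control by -0.21 with Pre-miR-376c and by 0.07 with siGRB2-2, within the scanner errors of 0.28 and 0.32, and siGRB2-2 differed from Pre-miR negative control by -0.25.

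The fibroblast growth factor receptors were read by 2 probes each. FGFR1 probe A_23_P301304 had levels of -0.73 with Pre-miR negative control, -0.75 with Pre-miR-376c, -1.15 with siRNA negative control and -0.61 with siGRB2-2, and probe A_23_P372923 had -2.20, -2.22, -2.72 and -2.31. Both probes were lowest on the siRNA negative control array. Both differed by -0.02 with Pre-miR-376c, and by 0.54 and 0.40 with siGRB2-2 against siRNA negative control, with a scanner error of 0.20 to 0.21 for each. Against Pre-miR negative control the siGRB2-2 differences of both FGFR1 probes were 0.12 and -0.12, within that error.

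FGFR2 held the largest difference of the 10 genes between Pre-miR-376c and its own control, in its dimmer probe. Probe A_23_P202334 had levels of -3.21 with Pre-miR negative control, -3.72 with Pre-miR-376c, -4.18 with siRNA negative control and -3.54 with siGRB2-2. Probe A_24_P206624 was detected with Pre-miR negative control at -4.27 and with siGRB2-2 at -6.30, and was not well above background with Pre-miR-376c and siRNA negative control. Both FGFR2 probes were thus highest with Pre-miR negative control. The brighter probe differed by -0.51 with Pre-miR-376c (scanner error 0.21), and the dimmer one was at least 4.40-fold lower, a bound set against the lowest signal of a detected probe on the Pre-miR-376c array. Normexp background correction here started from median spot intensities, left out spots with a flagged background and added 50 to each intensity. The added 50 narrows log2 differences of dim probes, and its part in the change was not tested. With normexp correction the bound of the dimmer probe was -0.93 on the log2 scale, which does not settle whether that probe was 2-fold apart. With siGRB2-2 the brighter probe was higher than on siRNA negative control by 0.64, and the dimmer one by at least 1.02-fold. Against Pre-miR negative control both were lower with siGRB2-2, by log2 differences of -0.33 and -2.03. Processed signals of the dimmer probe were 140 with Pre-miR negative control and 25.4 with siGRB2-2, where the lowest signal of a detected spot was 21.2 to 24.4 across the arrays.

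FGFR3 was read on all 4 arrays by probe A_23_P500501, at -5.54 with Pre-miR negative control, -5.24 with Pre-miR-376c, -5.29 with siRNA negative control and -5.02 with siGRB2-2. The other FGFR3 probe was not well above background on any array. The difference was 0.30 with Pre-miR-376c (scanner error 0.29) and 0.27 with siGRB2-2 (scanner error 0.30) against their own controls, and 0.52 with siGRB2-2 against Pre-miR negative control.

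NTRK2, known as TrkB, is the receptor of brain-derived neurotrophic factor (BDNF) and neurotrophin 4. Its detected probe, A_24_P343559, had levels of -5.83 with Pre-miR negative control, -5.96 with Pre-miR-376c, -2.76 with siRNA negative control and -5.77 with siGRB2-2, and processed signals of 47.3, 33.2, 254 and 36.6. The level stood out on the siRNA negative control array alone, and the other 3 arrays lay within 0.19 of each other. The log2 difference with siGRB2-2 was thus -3.01 against siRNA negative control (scanner error 0.30), or 12.4% of it, and 0.058 against Pre-miR negative control (scanner error 0.33). Pre-miR-376c differed by -0.13 from Pre-miR negative control (scanner error 0.35) and by -3.20 from siRNA negative control. With normexp background correction, which added 50 to each intensity, the difference with siGRB2-2 against siRNA negative control was -1.67. The value of 254 comes from 1 spot, and the other 2 NTRK2 probes were not well above background on that array or on any other.

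Set side by side, 1 of the 12 receptor probes compared was 2-fold or more apart with Pre-miR-376c against its own control (FGFR2 A_24_P206624), where 3.04% of the 24384 probes compared over the whole array did. Between siGRB2-2 and siRNA negative control 1 of 12 did (NTRK2), against 9.82% of 23368. Counts this small allow no comparison with the shares over the array. Of siGRB2-2 against Pre-miR negative control, 1 of 12 passed (FGFR2 A_24_P206624) against 2.94% of all probes, and of Pre-miR-376c against siRNA negative control, 1 of 11 (NTRK2) against 7.26%. Between the 2 negative controls 2 of 12 passed (the same FGFR2 probe and NTRK2) against 9.17%, and between siGRB2-2 and Pre-miR-376c 0 of 12 against 2.9%. Each receptor probe past 2-fold with a treatment was thus also past 2-fold between the 2 controls.

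Among the 11 probes detected on all 4 arrays, the difference exceeded its scanner error for 4 with Pre-miR-376c against its own control (FGFR2, FGFR3, EPHA2 and MST1R), where 47.7% of the 21239 probes detected on all 4 arrays did. With siGRB2-2 against its own control it did so for 8 of 11 (MET, AXL, both FGFR1 probes, FGFR2, EPHA2, MST1R and NTRK2), against 71.9% of all these probes. It exceeded the error for 10 of 11 between the 2 controls (69.5% of all), and for 2 of 11 between siGRB2-2 and Pre-miR-376c (42.4% of all). The median of the 11 differences was -0.02 with Pre-miR-376c, where it was -0.03 over all probes detected on both arrays, and 0.40 with siGRB2-2, where it was 0.15. With siGRB2-2, 9 of the 11 lay above 0, as did 60.4% of all probes detected on the 4 arrays. The 44 remaining receptors had a similar median of 0.41 in that comparison, with 18 of their 27 probes detected on both arrays above 0. Scaling the arrays on their medians moved the median of all probes in that comparison from 0.15 to -0.15 and quantile normalization moved it to 0.02, and 6 probes (AXL, both FGFR1 probes, FGFR2, EPHA2 and MST1R) lay above 0 under all 5 scalings (the 75th percentile, the same over detected probes, the median, quantiles and the deposited values). IGF1R, INSR and FGFR3 turned below 0 under at least 1 of them. How many of all probes stayed above 0 under all 5 scalings was not computed, so the 6 cannot be compared with the array. The siRNA negative control array was the lowest of the 4 for 7 of the 11 probes (45.8% of all) and the highest for 2, MET and NTRK2 (29.6% of all). It thus lay outside the range of the other 3 arrays for 9 of 11, and did so for 75.4% of all probes. Against Pre-miR negative control the median with siGRB2-2 was 0.058, with 6 probes above 0 (55.7% of all) and 5 below. These comparisons share arrays with each other, so their values are not independent. In bulk RNA, fewer cells with a transcript and less of it per cell cannot be told apart.

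The ligands of these receptors comprised 33 genes and 46 probes; 14 genes had a probe detected on all 4 arrays, 9 on some and 10 on none. With Pre-miR-376c, 2 of the 24 ligand probes compared were at least 2-fold higher (1.57% of all probes) and 1 was at least 2-fold lower (1.47%), with a median of -0.01. With siGRB2-2 against siRNA negative control 7 of 24 were at least 2-fold higher (6.71%) and 1 was at least 2-fold lower (3.11%), with a median of 0.13. FGF2, basic fibroblast growth factor, supplied both probes higher with Pre-miR-376c. Its probe A_33_P3379886 had levels of -3.81 with Pre-miR negative control, -2.56 with Pre-miR-376c, -2.39 with siRNA negative control and -2.46 with siGRB2-2, and probe A_33_P3419696 had -2.61, -1.47, -1.06 and -1.27. Both probes were low on the Pre-miR negative control array alone. The FGF2 differences were 1.24 and 1.14 with Pre-miR-376c against that control, -0.17 and -0.41 against siRNA negative control, and -0.07 and -0.21 with siGRB2-2 against its own control.

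GAS6, the ligand of AXL, had levels of 0.00 with Pre-miR negative control, -0.41 with Pre-miR-376c, -1.15 with siRNA negative control and 0.20 with siGRB2-2. GAS6 was therefore higher with siGRB2-2 by 1.35 against siRNA negative control and by 0.20 against Pre-miR negative control. As for AXL, the siRNA negative control array was the lowest of the 4, as it was for 45.8% of all probes detected on all 4 arrays. BDNF, the ligand of NTRK2, was read by 2 probes. Probe A_23_P127891 had levels of -1.86 with Pre-miR negative control, -2.20 with Pre-miR-376c, -2.87 with siRNA negative control and -1.82 with siGRB2-2, and probe A_32_P7316 had -4.68, -4.97, -5.71 and -4.54. Both BDNF probes were also lowest on the siRNA negative control array, where the detected NTRK2 probe, read by 1 spot, was highest. No link between the levels of ligands and receptors was tested. Their differences with siGRB2-2 were 1.05 and 1.17 against siRNA negative control, and 0.04 and 0.14 against Pre-miR negative control.

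Among the ephrin-A ligands of EPHA2, EFNA1 (10 spots) had levels of -0.66 with Pre-miR negative control, -0.65 with Pre-miR-376c, -1.35 with siRNA negative control and -0.48 with siGRB2-2. EFNA3 and EFNA5 were higher with siGRB2-2 against siRNA negative control, by 1.17 and 1.05, and by 0.05 and 1.70 against Pre-miR negative control. Of these 3 ephrins only EFNA5 was past 2-fold against both controls, at a level of -4.51 with siGRB2-2 and between -6.21 and -5.53 on the other 3 arrays. EFNA4 was detected on all 4 arrays and EFNA2 on 3, and their levels are not described here.

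HGF, FGF20, FGF19 and FGF8 were detected on too few arrays to meet the rule for naming ligands, and were singled out after their values were seen. HGF, the ligand of MET, was detected only with siRNA negative control, by probe A_33_P3276713 at -2.75. Relative to that array it was at least 12.8-fold lower with siGRB2-2 and 12.6-fold lower with Pre-miR-376c. It was also at least 18.8-fold higher on that array than with Pre-miR negative control. The other HGF probe was not well above background on any array. With Pre-miR negative control HGF was not well above background by either probe, so siGRB2-2 has no HGF fold against that control. FGF20 was detected only with siGRB2-2, at -2.62, at least 13.0-fold higher than with siRNA negative control and 20.7-fold higher than with Pre-miR negative control, and its other probe was not detected. FGF19 was detected only with Pre-miR negative control, at -5.17, and was at least 2.35-fold lower with Pre-miR-376c, and FGF8 was at least 2.09-fold higher with siGRB2-2 than with siRNA negative control, with a log2 difference of 0.49 against Pre-miR negative control. IGF1 was not well above background on any array by either of its probes. MST1, the ligand of MST1R, had levels of -1.52, -2.25, -2.30 and -1.95 in the order Pre-miR negative control, Pre-miR-376c, siRNA negative control and siGRB2-2.

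**Figure D3:**
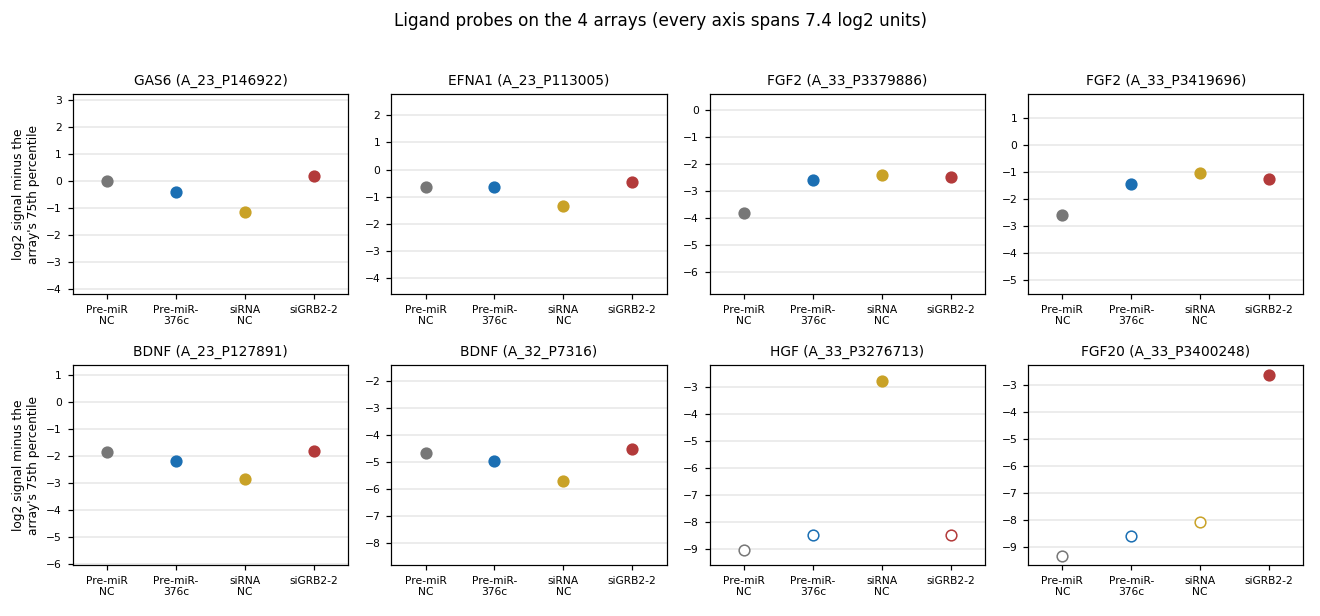
Level of ligand probes (y axis, log2 signal minus the array's 75th percentile) on the 4 arrays (x axis); open symbols are signals not well above background, and every axis spans the same range. FGF2 is low with Pre-miR negative control, GAS6, EFNA1 and BDNF are lowest with siRNA negative control, HGF is detected at -2.75 with siRNA negative control and FGF20 at -2.62 with siGRB2-2.

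For proteins that work with these receptors and for the remaining receptors the counts were as follows. No probe of the 22 compared for docking proteins and adaptors, of 21 for receptor brakes, of 19 for co-receptors and ligand activators, of 6 for insulin-like growth factor binding proteins or of 30 for the remaining receptors was 2-fold apart with Pre-miR-376c. With siGRB2-2 against siRNA negative control, 2 of 23 docking protein probes, 1 of 20 brake probes, 1 of 18 co-receptor probes, 0 of 6 binding protein probes and 3 of 30 probes of the remaining receptors were at least 2-fold higher, where 6.71% of all probes were, and none of these was at least 2-fold lower, where 3.11% were. The adaptor SH2B1 was higher by 1.79 against siRNA negative control and differed by -0.43 against Pre-miR negative control. One probe of SHC1 was higher by 1.33 while its other probe (10 spots) differed by -0.03, so the SHC1 probes disagreed. Against Pre-miR negative control these SHC1 probes differed by 0.15 and 0.19. SDC4, a heparan sulphate proteoglycan that helps fibroblast growth factors bind, had levels of 2.51 with Pre-miR negative control, 2.19 with Pre-miR-376c, 1.06 with siRNA negative control and 2.40 with siGRB2-2. With siGRB2-2 it differed by 1.35 against its own control and by -0.11 against the other. Among the remaining receptors, EPHB6, a kinase-dead ephrin receptor, was higher by 1.18 and LTK by 1.26 against siRNA negative control, and by 0.86 and 0.41 against Pre-miR negative control. DDR1 by its dimmer probe and the brake CBLB were also higher, by bounds of 1.35 and 1.44 (log2), and the brighter DDR1 probe by 0.59. Against Pre-miR negative control the differences were 0.10 for the dimmer and 0.17 for the brighter DDR1 probe and -0.23 for CBLB. DDR1 and CBLB were named after their values were seen.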

How the data were processed

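HuCCT1 cells were transfected in 4 ways, with 1 array each. The authors deposited spot intensity values from Agilent Feature Extraction (version 10.7.3.1, per the submitters' processing notes) for a human 44 K design, and a table of log2 values that the authors scaled to the 75th percentile. The deposited log2 values matched the scanner intensities minus 1 constant per array within 0.01 for 99.45% to 99.54% of probes. Here, log2 processed intensities minus the array's 75th percentile (1719 to 2689) were computed in Python 3.11.15 with numpy 2.4.6 and pandas 2.3.3. The 289 to 329 outlier-flagged spots per array were dropped, and a probe's spots were averaged. Comparisons took every probe that either array detected. Where only 1 array detected it, the difference is a bound against the higher of the dim array's own signal and its lowest detected signal. Array values carry no read depth: precision is limited by 1 array per condition.

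Gene names came from the probe's accession through RefSeq (GRCh38.p14, used for names only, 25419 probes named or 74.5%), since the scanner files name another build. Every receptor probe is given. From the other lists, genes with a probe detected on both arrays and at least 2-fold apart are named. EFNA1, MST1 and IGF1 are described outside this rule, as are the genes said to be picked after their values were seen. The receptors, lists and rules were chosen with earlier results of these data known. The calculation was tested on simulated data. Alternatives used other scalings, normexp background correction (limma 3.58.1, R 4.3.3, offset 50), the deposited values, other filters, fold limits and controls. A planned comparison of protein sequences was not run.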

Additional observations from a re-analysis of the deposited data

Results flagged for a closer look

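Of the receptor probes detected on all 4 arrays, 2 moved in opposite directions in the 2 own-control comparisons by more than the scanner error. How many of all probes did so was not computed, so this count cannot be compared with the array. The scanner error was exceeded by 47.7% of all probes detected on all 4 arrays with Pre-miR-376c, and by 71.9% with siGRB2-2, against their own controls. The brighter FGFR2 probe differed by -0.51 with Pre-miR-376c against Pre-miR negative control and by 0.64 with siGRB2-2 against siRNA negative control. EPHA2 differed by -0.38 with Pre-miR-376c and by 0.79 with siGRB2-2 in the same comparisons. The difference between the comparisons was not tested, since each condition has 1 array. With the controls exchanged the signs turned, to 0.46 and -0.33 for FGFR2 and to 0.58 and -0.17 for EPHA2, and the 2 controls differed from each other by -0.97 in FGFR2 and -0.96 in EPHA2.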

How the results depend on the processing

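The count of receptor probes at least 2-fold apart with Pre-miR-376c was 1. It was 0 with normexp background correction, where the bound for FGFR2 was -0.93, 0 when only probes detected on both arrays were kept, and 2 with no filter on detection; with the other negative control or the mean of both it was again 1, but the probe was NTRK2 in place of FGFR2. Normexp correction added 50 to each intensity, and how far this narrowed the difference was not tested. With siGRB2-2 the count was 1, and it was 2 with the median shift and 2 with the deposited log2 values, where MET passed at -1.25 and -1.02. It was 3 with no filter on detection and 5 with the 1.5-fold limit. NTRK2 with siGRB2-2 reversed from -3.01 to 0.058 (within the scanner error of 0.33) with the other negative control, and lay between -3.34 and -1.48 under the other alternatives. With the other negative control 6 of 11 differences changed sign for Pre-miR-376c and 6 of 12 for siGRB2-2. How many of all probes changed sign was not computed. Some of these changes lay within the scanner error, such as IGF1R with Pre-miR-376c at 0.01 and -0.20 (scanner error 0.20). The number of probes detected on all 4 arrays was 11, also without the siRNA negative control array, an alternative chosen after seeing the data, and 12 with a less strict detection flag. IGF1R has no normexp value with siGRB2-2. No paired analysis was possible because the conditions have 1 array each. INSR, FGFR3, NTRK2 and the dimmer FGFR2 probe are near the background, where the scanner error of a difference reached 0.28 to 1.02.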

Other observations

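Receptors of the remaining list that differed by less than 2-fold against their own control included EPHA4, read by 10 spots, at -0.77 with Pre-miR negative control, -1.65 with Pre-miR-376c, -0.49 with siRNA negative control and -1.08 with siGRB2-2. EPHA4 was lower with both treatments against either control: by -0.88 and -1.15 with Pre-miR-376c, and by -0.31 and -0.59 with siGRB2-2. MERTK, the TAM family relative of AXL, was at -4.09, -4.06, -3.41 and -4.31 in the same order of arrays, highest with siRNA negative control, while AXL was lowest there. These genes were picked after their values were seen.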
